A study of Mus musculus with 15 samples.

Results

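The genes described here are 10 that neutrophils are known for: S100a8, S100a9, Lcn2, Ngp, Camp, Mmp8, Mpo and Retnlg, which encode proteins of the granules or the cytosol, and the receptor genes Csf3r and Cxcr2. They were listed by symbol, and a gene was represented by the probe set annotated to it alone, the one with the highest mean where there were several. Of the 10 genes, 9 had such a probe set, among 18193 genes of the array that did, and each of the 9 had 1. No probe set was annotated to Retnlg alone, and its level is not given. On the scale of log2(intensity + 16), the mean level over the 15 arrays lay above the median of all 45037 probe sets (5.66, an intensity of 34.6) for 6 genes: S100a8, S100a9, Lcn2, Ngp, Mmp8 and Csf3r. For Camp, Mpo and Cxcr2 the mean was under that median. Of all 18193 genes, 11925 lay above it, so 6 of the 9 is near the share over all genes.

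The samples were foam cells, lipid-laden macrophages, cut by laser capture from lesions in sections of the aortic sinus of mice on the C57BL/6 strain. All 3 groups of 5 arrays carried the same genotype, ApoE-/-, which removes apolipoprotein E and raises plasma cholesterol, so no group had intact Apoe. The CHOW group was fed regular chow to 22 weeks. The 2w-WD group received a western-type diet for 2 weeks: the sample labels place this after 20 weeks of chow, whereas the series text gives weeks 22 to 24, so its age at sampling is uncertain by the sources. The 14w-WD group ate the western-type diet over 14 weeks, starting in week 8 and ending in week 22. Extraction used the PicoPure kit and amplification RiboAmp HS, and 15 µg of the product was labelled for hybridisation. The array was the Affymetrix Mouse Genome 430 2.0, which carries probe sets for most mouse genes. The labels do not say which arrays came from which animals, so a p-value covers the differences among samples as deposited, and part of these may be technical. In bulk RNA such as this, fewer cells of a type and less RNA per cell cannot be told apart.

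The arrays held the labelled cell type by its markers: 12 of 12 macrophage markers lay above the median of all probe sets, as did 11925 of all 18193 genes. The summed intensity of the macrophage markers was 88655 to 115422 in CHOW, 80325 to 99640 in 2w-WD and 93373 to 108959 in 14w-WD arrays. Heart muscle markers were present too, 10 of 10 above the median, and varied more: their summed intensity was 2165 to 60595 in CHOW, 52892 to 99694 in 2w-WD and 25074 to 71445 in 14w-WD arrays. Of 9 neutrophil markers outside the 10 genes, 6 were measured and 2 lay above the median, Mmp9 and Il1r2. Their summed intensity was 154 to 229 in CHOW, 147 to 459 in 2w-WD and 174 to 244 in 14w-WD arrays. Of 9 markers of inflammatory monocytes, 7 were measured and 7 lay above the median, with sums of 372 to 1077, 509 to 992 and 435 to 1532 in CHOW, 2w-WD and 14w-WD arrays. Other cell types gave signal as well. Over all arrays, sums ran from 5220 to 15011 for smooth muscle, 1366 to 8460 for endothelium, 1575 to 10902 for B cell and 931 to 2607 for platelet markers. The brightest genes of the first 3 of these lists were Acta2, Vwf and Cd22 (mean log2 levels of 13.31, 11.95 and 11.93). Array medians were close, at intensities of 31.7 to 38.2. The share of probe sets brighter than 100 was 20.4 to 24.7% in CHOW, 18.2 to 25.7% in 2w-WD and 22.5 to 27.2% in 14w-WD arrays.

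Neutrophils make their granules in succession while they mature in the bone marrow. Primary granules hold myeloperoxidase and serine proteases, specific granules hold lactoferrin, lipocalin and the cathelicidin precursor, and gelatinase granules hold matrix proteases. Most of the transcripts for these proteins are made in marrow precursors and decline before the cell enters the blood, whereas S100a8, S100a9 and the receptors remain transcribed in mature cells. S100a8, S100a9 and Lcn2 are also expressed by monocytes and by activated macrophages, so they do not mark neutrophils alone.

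The promoters of S100a8, S100a9 and Mmp8 are shown because these 3 genes had their 2 highest levels on the same 2 arrays. S100a8 and S100a9 are neighbours on chromosome 3, and the RefSeq annotation placed no gene wholly between them. The windows are RefSeq sequences of build GRCm38.p6, from 250 bases before to 50 bases after the annotated start, read 5′ to 3′ on the strand of the gene. Capitals mark matches on either strand to TATAAA (the TATA box), GAGGAA (a core of PU.1 sites, read TTCCTC on the other strand) and TTNNGCAA (a C/EBP half-site pair, read TTGCNNAA).
S100a8, chr3:90668821-90669120, plus strand: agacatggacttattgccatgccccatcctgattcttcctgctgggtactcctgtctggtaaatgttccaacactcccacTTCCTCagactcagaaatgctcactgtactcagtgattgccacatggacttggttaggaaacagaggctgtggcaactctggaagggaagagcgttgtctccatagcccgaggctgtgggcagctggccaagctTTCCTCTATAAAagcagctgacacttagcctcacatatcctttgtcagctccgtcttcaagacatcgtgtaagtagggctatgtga
S100a9, chr3:90695672-90695971, minus strand: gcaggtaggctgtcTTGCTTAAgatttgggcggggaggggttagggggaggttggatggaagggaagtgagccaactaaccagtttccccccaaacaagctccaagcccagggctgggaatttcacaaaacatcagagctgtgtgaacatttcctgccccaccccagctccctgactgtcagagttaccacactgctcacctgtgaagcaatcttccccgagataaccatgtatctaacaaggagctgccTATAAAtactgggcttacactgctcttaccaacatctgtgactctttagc
Mmp8, chr9:7558179-7558478, plus strand: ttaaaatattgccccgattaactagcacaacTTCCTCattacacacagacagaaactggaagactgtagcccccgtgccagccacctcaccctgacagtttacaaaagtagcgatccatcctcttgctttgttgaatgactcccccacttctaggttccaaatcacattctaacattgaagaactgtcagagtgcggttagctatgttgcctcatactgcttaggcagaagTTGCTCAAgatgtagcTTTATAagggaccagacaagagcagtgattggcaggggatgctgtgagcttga

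In the S100a8 window TATAAA began 30 bases before the start, and TTCCTC began 170 and 36 bases before it, the nearer match ending where TATAAA begins. In the S100a9 window TATAAA began at the annotated start itself, and TTGCTTAA began 236 bases before it. In the Mmp8 window TTTATA began 3 bases before the start, TTGCTCAA 19 and TTCCTC 219 bases before it. No matches overlapped. All 10 genes had a window in the table. TATAAA or TTTATA was found in 3 of them, the 3 printed here, at unlike positions, and in 13.6% of all 32851 windows. GAGGAA was found in 6 of the 10 (Csf3r, Cxcr2, Lcn2, Mmp8, Mpo and S100a8) and in 28.3% of all windows, and TTNNGCAA in 5 of the 10 (Lcn2, Mmp8, Ngp, Retnlg and S100a9) and in 10.8% of all windows. These matches are a description of letters, and binding was not measured.

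S100a8 encodes a calcium-binding protein that pairs with the product of S100a9 to form calprotectin, which binds metal ions and, once released, is a ligand of Tlr4. Its probe set, 1419394_s_at, is of a kind that can match more than 1 transcript. On the log2 scale S100a8 read 11.52, 12.26, 12.46, 11.78 and 11.75 on CHOW replicates 1 to 5. It read 11.26, 11.80, 13.76, 12.82 and 13.79 on the 2w-WD replicates, and 10.68, 11.57, 11.60, 12.82 and 10.62 on the 14w-WD replicates. All 15 values lay above their own array's median. The 2 highest were 2w-WD replicates 5 and 3 and the 2 lowest 14w-WD replicates 5 and 1, but each diet group overlapped both others.

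S100a9, the partner gene, read 5.78, 5.48, 5.17, 7.02 and 5.79 on the CHOW arrays (probe set 1448756_at). It read 4.70, 5.36, 8.13, 5.95 and 10.39 on the 2w-WD arrays, and 6.14, 6.33, 6.88, 7.46 and 4.42 on the 14w-WD arrays. Its intensity spanned 5.47 to 1329. Again 2w-WD replicates 5 and 3 were highest and 14w-WD replicate 5 lowest, and the groups overlapped. It was the gene closest above the median of all probe sets, at a mean of 6.33, and 10 of its 15 values lay above their own array's median.

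Lcn2 encodes lipocalin 2, a specific granule protein that withholds iron from bacteria by binding their siderophores (probe set 1427747_a_at). It read 8.01, 7.50, 7.31, 8.28 and 5.79 on the CHOW arrays, 7.61, 7.12, 6.82, 7.23 and 7.21 on the 2w-WD arrays, and 9.19, 7.67, 8.93, 7.41 and 7.40 on the 14w-WD arrays. The 2 highest values were 14w-WD replicates 1 and 3 and the lowest was CHOW replicate 5. The SD was 0.97 in CHOW, 0.28 in 2w-WD, where the 5 values lay closest together, and 0.87 in 14w-WD.

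Ngp encodes a granule protein related to the cathelicidins (probe set 1418722_at). It read 8.04, 8.48, 8.72, 8.08 and 9.27 on the CHOW arrays, 8.70, 7.97, 8.84, 8.15 and 9.05 on the 2w-WD arrays, and 7.57, 8.56, 7.47, 8.80 and 8.03 on the 14w-WD arrays. Its highest value was CHOW replicate 5, the array on which Lcn2 was lowest, and its lowest were 14w-WD replicates 3 and 1, the arrays on which Lcn2 was highest. Camp, the cathelicidin precursor, had a mean of 5.58, just 0.08 below the median of all probe sets (probe set 1419691_at). The CHOW arrays averaged 5.42 ± 0.19, the 2w-WD arrays 5.66 ± 0.36 and the 14w-WD arrays 5.67 ± 0.39 (SD, n = 5 each), and 4 of 15 values lay above their own array's median.

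Mmp8 encodes neutrophil collagenase, which cleaves fibrillar collagen (probe set 1449366_at). It read 7.08, 6.46, 7.98, 7.68 and 7.88 on the CHOW arrays, 5.72, 7.20, 9.42, 7.29 and 8.20 on the 2w-WD arrays, and 6.80, 6.35, 6.57, 7.81 and 7.77 on the 14w-WD arrays. The 2 highest values were 2w-WD replicates 3 and 5, and the lowest was in the same group, replicate 1. Mpo encodes myeloperoxidase, the peroxidase of primary granules that makes hypochlorous acid (probe set 1415960_at). The CHOW arrays averaged 5.43 ± 0.70, the 2w-WD arrays 4.89 ± 0.77 and the 14w-WD arrays 5.34 ± 0.30 (SD, n = 5 each), all under the median of the probe sets.

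Csf3r encodes the receptor for granulocyte colony-stimulating factor, the main signal for neutrophil production (probe set 1418806_at). It read 8.26, 6.88, 7.01, 7.16 and 6.94 on the CHOW arrays, 7.73, 6.27, 7.31, 5.96 and 7.55 on the 2w-WD arrays, and 7.73, 8.23, 7.20, 7.21 and 8.13 on the 14w-WD arrays. The highest value was CHOW replicate 1, and the 2 lowest were 2w-WD replicates 4 and 2. All 15 values lay above their own array's median. Cxcr2 encodes the receptor that draws neutrophils towards CXC chemokines (probe set 1421734_at). Its intensity was 1.00 to 12.9 and exactly 1 on 7 of the 15 arrays, and none of its values reached its own array's median. This probe set read near the floor of the deposited values.

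**Figure D1:**
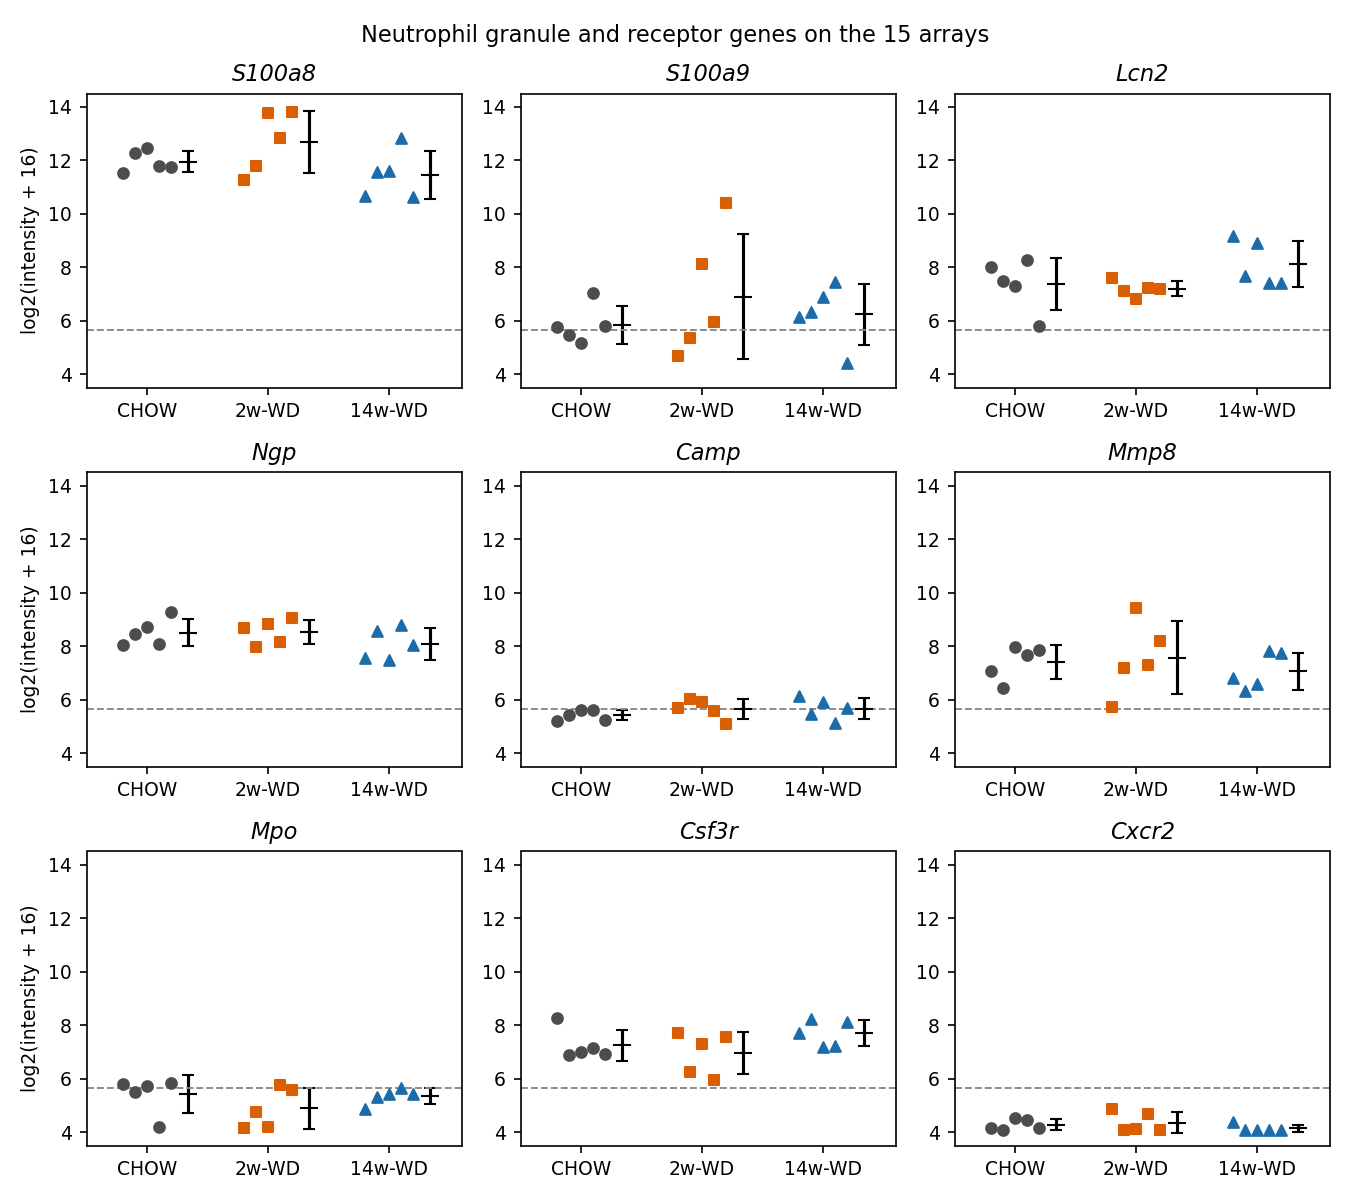
Level of each of the 9 measured genes on each array, as log2(intensity + 16) on the vertical axis. Points are arrays, ordered by replicate number within CHOW, 2w-WD and 14w-WD, bars are the mean ± SD (n = 5), and the dashed line is the median of all probe sets (5.66). S100a8 stayed above the line on every array, S100a9 ran from 4.42 to 10.39, and Camp, Mpo and Cxcr2 had means below the line.

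The first comparison set 2 weeks of western diet against chow. No gene of the list passed the test. S100a8 averaged 12.69 ± 1.14 on 2w-WD arrays and 11.95 ± 0.39 on CHOW arrays (SD, n = 5 each), a log2 change of 0.73 with an SE of 0.47 (95% interval -0.26 to 1.73, limma adjusted p = 0.587). S100a9 averaged 6.91 ± 2.34 on 2w-WD arrays and 5.85 ± 0.70 on CHOW arrays, a change of 1.06 with an SE of 0.83 (interval -0.70 to 2.82, limma adjusted p = 0.657). Without 2w-WD replicate 5 this change was 0.19, and without 2w-WD replicate 1 it was 1.61. Lcn2 (-0.18), Csf3r (-0.29), Mmp8 (0.15) and Ngp (0.03) had smaller changes, with limma adjusted p of 0.797 to 0.985. The intervals still allowed a log2 change of 1.28 for Mmp8, -1.12 for Lcn2 and -1.08 for Csf3r, so the absence of a call does not show equal levels. Of the 6 genes tested, 0 were past an adjusted p of 0.05, and over all 11925 genes tested 0.0% were. Groups that did not overlap were found for 0 of the 6 and for 1.12% of all. At an unadjusted p under 0.05 the counts were 0 of 6 genes here and 9.76% of all.

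The second comparison set 14 weeks of western diet against chow, and again no gene of the list passed. S100a8 averaged 11.46 ± 0.89 on 14w-WD arrays and 11.95 ± 0.39 on CHOW arrays, a log2 change of -0.50 (interval -1.49 to 0.50, limma adjusted p = 0.616). Lcn2 averaged 8.12 ± 0.87 on 14w-WD arrays and 7.38 ± 0.97 on CHOW arrays, a change of 0.74 (interval -0.20 to 1.68, limma adjusted p = 0.424). This change was 0.34 without CHOW replicate 5, 0.47 without 14w-WD replicate 1, 0.46 with quantile normalization and 0.0916 with the share of probe sets brighter than 100 as a covariate, a setting chosen after seeing the data. Csf3r averaged 7.70 ± 0.49 on 14w-WD arrays and 7.25 ± 0.58 on CHOW arrays, a change of 0.45 (limma adjusted p = 0.564). The changes of S100a9 (0.40), Mmp8 (-0.36) and Ngp (-0.43) had limma adjusted p of 0.554 to 0.823. Of the 6 genes, 0 were called, against 0.00839% of all genes tested, which was 1 gene. Groups did not overlap for 0 of the 6 and for 4.87% of all. At an unadjusted p under 0.05 the counts were 0 of 6 and 15.9% of all.

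The third comparison set 14 weeks of the diet against 2 weeks, where 0 of the 6 genes were called, against 11.2% of all genes tested, 10.1% higher and 1.15% lower in 14w-WD. Groups did not overlap for 0 of the 6 and for 8.63% of all. S100a8 averaged 11.46 ± 0.89 on 14w-WD arrays and 12.69 ± 1.14 on 2w-WD arrays, a log2 change of -1.23 with an SE of 0.47 and an interval of -2.23 to -0.23. The unadjusted p was 0.0188 and the limma adjusted p 0.0915, so S100a8 was the 1 gene of the list at an unadjusted p under 0.05, as were 32.1% of all genes tested. Its call depended on the arrays used. With arrays weighted by quality the change was -1.79 (limma adjusted p = 0.00594), without 2w-WD replicate 1 it was -1.59 (0.0159), and without 14w-WD replicate 4 it was -1.57 (0.0346). Under these 3 settings 32.2%, 29.7% and 13.5% of all genes tested were called, which a count of 1 in 6 genes does not stand out from. With the brightness covariate the change of S100a8 was -0.32 (0.910). Its adjusted p over the 25 alternatives ran from 0.00594 to 0.910.

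In the same comparison, Lcn2 averaged 8.12 ± 0.87 on 14w-WD arrays and 7.20 ± 0.28 on 2w-WD arrays, a log2 change of 0.92 (interval -0.02 to 1.86, limma adjusted p = 0.164). Csf3r averaged 7.70 ± 0.49 on 14w-WD arrays and 6.96 ± 0.80 on 2w-WD arrays, a change of 0.74 (interval -0.06 to 1.53, limma adjusted p = 0.184). The median change of all genes tested was 0.23, and quantile normalization brought it to 0.01. Under that setting the changes were -1.34 for S100a8, 0.50 for Lcn2 and 0.40 for Csf3r, with limma adjusted p of 0.0850, 0.394 and 0.419. The changes of S100a9 (-0.66), Mmp8 (-0.51) and Ngp (-0.46) had limma adjusted p of 0.371 to 0.604. That of Mmp8 was -0.97 without 2w-WD replicate 1 and -0.043 without 2w-WD replicate 3, and that of S100a9 was 0.21 without 2w-WD replicate 5. Over the 6 genes the median change was -0.48 here, against 0.02 for 14w-WD over CHOW and 0.09 for 2w-WD over CHOW, while all genes tested had medians of 0.23, 0.16 and -0.10. These comparisons share arrays with one another.

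**Figure D2:**
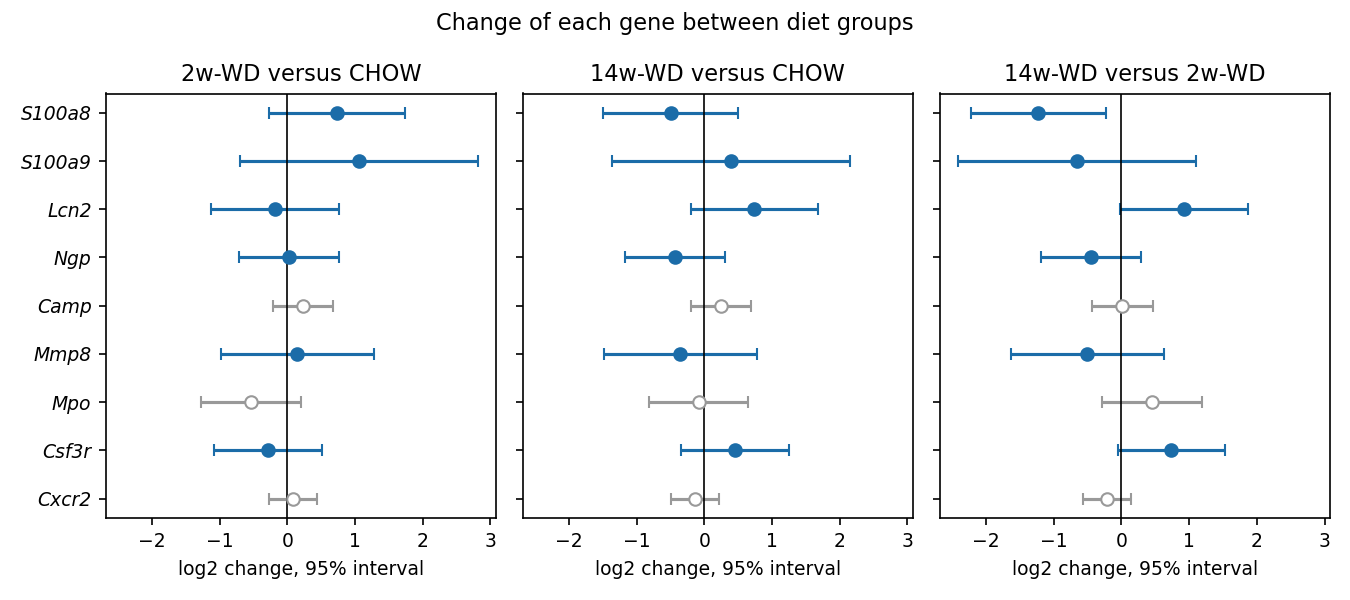
Log2 change of each gene (horizontal axis) in the 3 comparisons, with points for the estimate and bars for the 95% interval, from limma on 5 arrays per group. Filled blue points are the 6 genes above the median of all probe sets and open grey points the 3 below it, which were not among the genes tested. S100a8 in 14w-WD versus 2w-WD (-2.23 to -0.23) is the 1 filled interval that does not reach 0.

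The 3 genes below the median of all probe sets were left out of the test. Their log2 changes in 2w-WD over CHOW were 0.23 for Camp, -0.54 for Mpo and 0.08 for Cxcr2. In 14w-WD over CHOW they were 0.25, -0.09 and -0.13, and in 14w-WD over 2w-WD 0.01, 0.45 and -0.22. When all genes were tested, their limma adjusted p lay between 0.430 and 0.978. Adding 16 to each intensity keeps such dim values close together and understates their changes.

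The spread between arrays of 1 group was wide for most of these genes. The pooled SD within groups was 1.56 for S100a9, larger than for 99.5% of the genes tested, whose median was 0.47. It was 0.95 for Mmp8 (larger than for 95%), 0.87 for S100a8 (91.7%), 0.77 for Lcn2 (85.9%), 0.63 for Csf3r (73.0%) and 0.52 for Ngp (58.3%). For S100a9 the SD was 0.70 in CHOW, 2.34 in 2w-WD, the widest group, and 1.14 in 14w-WD.

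S100a8 and S100a9 varied together over the 15 arrays. Their log2 levels correlated at r = 0.72 (Spearman rho = 0.54), and at 0.76 after each group's mean was taken away. Without 2w-WD replicates 3 and 5, the arrays farthest from the median of S100a8, r was 0.37 over the other 13, so the relation rests largely on those arrays. Of all genes tested, 15 had a higher r with S100a9 than S100a8 did, and 115 had a higher r with S100a8 than S100a9 did. These correlations describe 15 arrays that share normalization and diet groups, and carry no p.

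**Figure D3:**
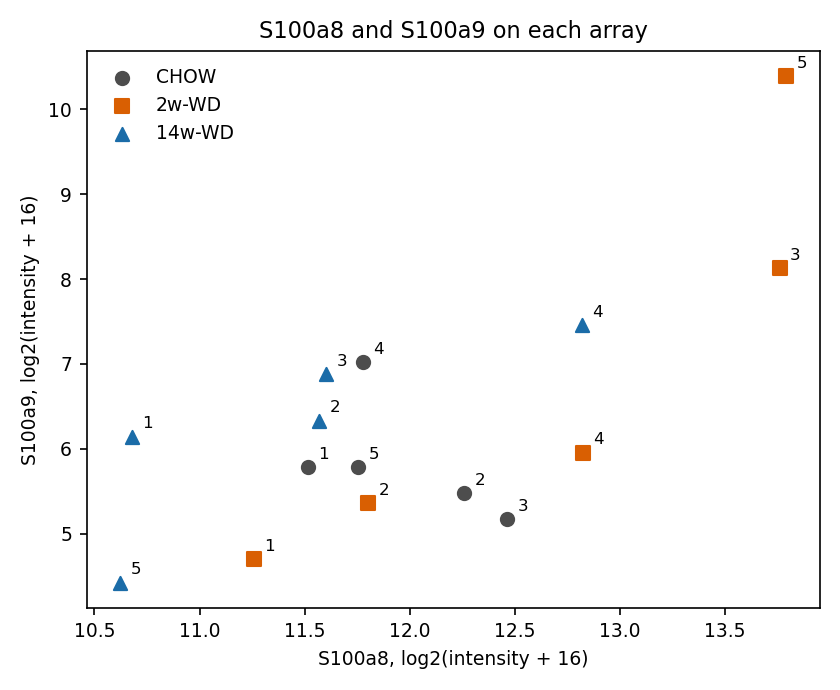
S100a8 (horizontal axis) against S100a9 (vertical axis), both as log2(intensity + 16), with a point for each of 15 arrays, numbered by replicate. The 2w-WD replicates 3 (13.76 and 8.13) and 5 (13.79 and 10.39) stand at the upper right, and r falls to 0.37 without them.

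Mmp8 followed the pair in part. S100a8 and Mmp8 correlated at r = 0.62 (rho = 0.60, and 0.30 without the 2 farthest arrays), and S100a9 and Mmp8 at 0.49 (rho = 0.35, and 0.14 without them). S100a8 and Ngp correlated at 0.57 (rho = 0.56, and 0.41 without them). Lcn2 had negative correlations with 3 of the genes: its r was -0.44 with S100a8 (rho = -0.58), -0.47 with Mmp8 (rho = -0.66) and -0.80 with Ngp (rho = -0.63). With S100a9 its r was -0.0095 (rho = 0.029, and 0.34 without 2w-WD replicates 3 and 5). The relation of Lcn2 with Ngp stayed at -0.66 without 14w-WD replicate 1 and CHOW replicate 5. The arrays with the highest Lcn2, 14w-WD replicates 1 and 3, also had the largest shares of probe sets brighter than 100 (25.9 and 27.2%). CHOW replicate 5, where Lcn2 was lowest (5.79), had the smallest share of the CHOW arrays (20.4%). The 2w-WD replicates 4, 3 and 2 had smaller shares still (18.2, 19.8 and 20.2%), with Lcn2 higher at 7.23, 6.82 and 7.12. The part of array brightness in these correlations was not tested.

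The 2w-WD replicates 3 and 5 carried the 2 highest levels of S100a8, S100a9 and Mmp8, which is 3 of the 6 genes. Of 26 tested genes in lists of granule proteins, receptors, ligands and lineage factors beside the 10, 5 had their 2 highest levels on these arrays too: Mmp9, Chil3, Fpr2, Trem1 and Cxcl2. Over all genes tested, 233 did, or 1.95%. Because the arrays were picked for their high S100a8 and S100a9, these counts describe them and test nothing. On 2w-WD replicates 1 to 5 the mean log2 level of the heart muscle markers was 12.70, 12.21, 10.38, 10.56 and 10.07, the reverse of the order of S100a8. This level was 11.24, 10.29, 9.75, 6.89 and 10.92 on CHOW replicates 1 to 5. On the 14w-WD replicates it was 9.28, 11.73, 9.89, 10.58 and 10.31. In neither of these groups was its order the reverse of that of S100a8. The part of heart muscle signal in the result was not tested.

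Fpr2, a receptor for formylated peptides on neutrophils and macrophages, had 1 tested gene above it in likeness to S100a9, with r = 0.83 (rho = 0.70, and 0.46 without the 2 farthest arrays). It read 7.74, 5.90, 6.47, 7.20 and 6.88 on the CHOW arrays, 5.65, 5.93, 9.60, 6.61 and 10.03 on the 2w-WD arrays, and 7.07, 5.92, 7.09, 7.20 and 6.91 on the 14w-WD arrays. Cxcl2, a chemokine that acts on Cxcr2, and Il1r2, the decoy receptor of interleukin 1, were singled out after their values were seen. Cxcl2 had r = 0.80 with S100a9 (rho = 0.79), and 0.73 without the 2 farthest arrays. It read 6.77, 6.65, 9.96, 10.47 and 8.82 on the CHOW arrays, 6.88, 7.01, 11.57, 8.04 and 11.49 on the 2w-WD arrays, and 8.62, 8.25, 10.25, 10.32 and 7.05 on the 14w-WD arrays. Its high values were thus not limited to 1 diet group. Il1r2 had r = 0.73 with S100a9 (rho = 0.78, and 0.68 without them).

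Mmp9, the gelatinase of neutrophil granules that macrophages also make, read between 5.32 and 6.43 on the CHOW arrays, 5.81, 5.56, 7.03, 7.01 and 7.80 on the 2w-WD arrays, and between 4.92 and 6.28 on the 14w-WD arrays. Its r was 0.72 with S100a8 and 0.55 with S100a9, but rho with S100a9 was 0.13 and r without the 2 farthest arrays was -0.16. Of the 26 genes, 7 had an r above 0.5 with S100a9, as 2.31% of all genes tested did. The counts were 4 of 26 with S100a8 (8.18% of all), 4 with Mmp8 (7.94%), 5 with Lcn2 (26.5%), 4 with Csf3r (30.4%) and 0 with Ngp (7.25%). The median r of the 26 genes was only 0.10 with S100a8 and 0.18 with S100a9, against -0.22 and -0.048 over all genes tested. Some of the 26 went the other way. Among them, r with S100a8 was -0.68 for Fcgr3 and -0.59 for Hp, and r with S100a9 was -0.46 for Ppbp, another ligand of Cxcr2.

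**Figure D4:**
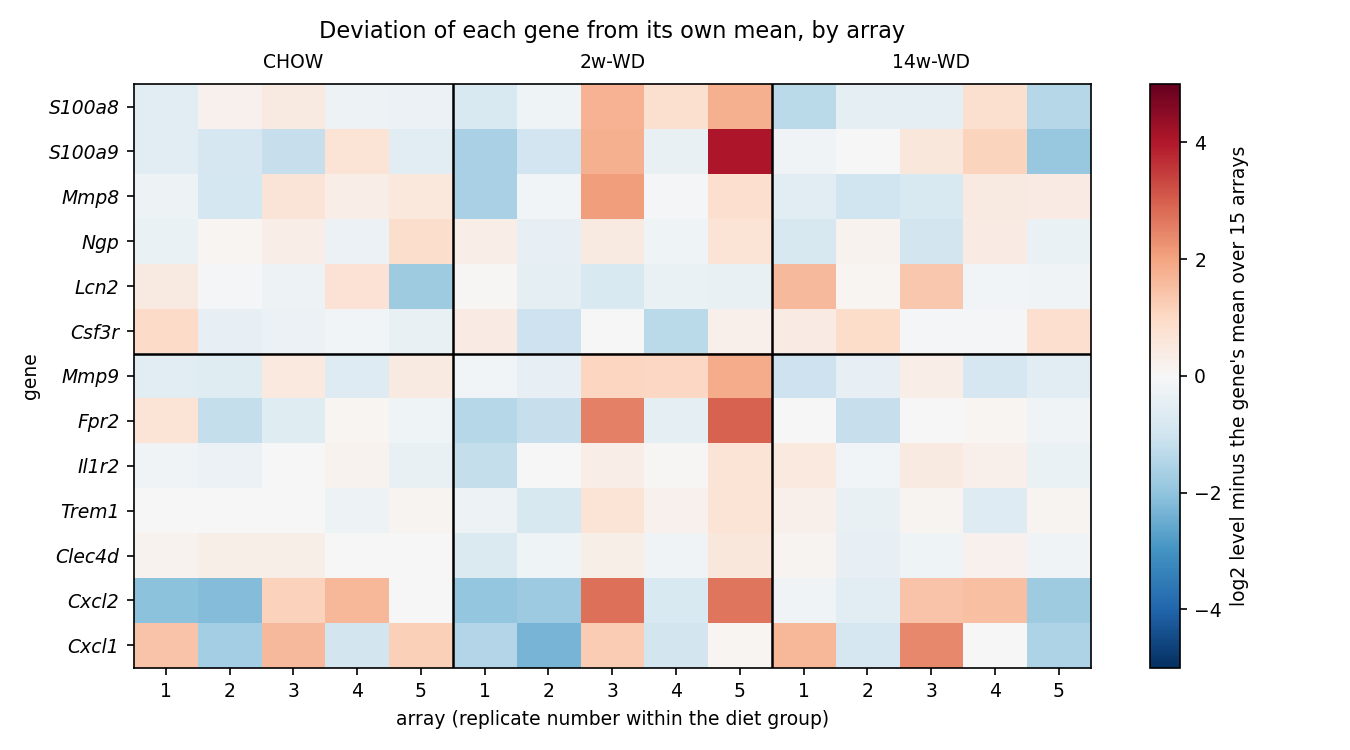
Log2 level of each gene minus its own mean over the 15 arrays (colour), by array (horizontal axis, replicate number within CHOW, 2w-WD and 14w-WD). Rows above the line are the 6 genes of the list above the median of all probe sets, and rows below it are 7 related genes, some chosen after their values were seen. S100a8, S100a9, Mmp8, Fpr2 and Cxcl2 are red in the columns of 2w-WD replicates 3 and 5, while Lcn2 is highest on 14w-WD replicates 1 and 3.

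The genes most like each member over the 15 arrays, by Pearson correlation of log2 levels and leaving out clone and predicted names, were mostly outside the known neutrophil genes. For S100a8 they were Nap1l2 (r = 0.87) and Cdh10 (0.86), and for S100a9 Prps1l3 (0.89) and Fpr2 (0.83). For Lcn2 they were Pbdc1 (0.92) and Mob1b (0.91), for Ngp Dnaja4 (0.88) and Frmd5 (0.86), for Mmp8 Oaz3 (0.90) and Ifna11 (0.88), and for Csf3r Phtf1 (0.93) and Osgep (0.90). With 11925 genes and 15 arrays, values of this size are a description only.

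Of 13 further granule proteins, 12 had a probe set and 6 lay above the median of all probe sets. None of the 6 was called in any comparison, against 0.0% of all genes tested in 2w-WD over CHOW, 0.00839% in 14w-WD over CHOW and 11.2% in 14w-WD over 2w-WD. The primary granule proteases were under it, with means of 5.50 for Elane (neutrophil elastase), 5.51 for Prtn3 (proteinase 3) and 4.55 for Ctsg (cathepsin G), as did Ltf (lactoferrin, specific granules) at 5.07. Chil3, a chitinase-like protein of granules and of activated macrophages, had the smallest unadjusted p for 2w-WD over CHOW. It read 8.05, 6.69, 8.91, 7.58 and 8.31 on the 2w-WD arrays and 6.46, 4.80, 5.74, 7.05 and 5.97 on the CHOW arrays, which overlap. Its log2 change was 1.90 with an SE of 0.48 (unadjusted p = 0.000999, limma adjusted p = 0.480). Mmp9 had a log2 change of -1.18 in 14w-WD over 2w-WD with an SE of 0.39 (limma adjusted p = 0.0597). It passed with quantile normalization (0.0486), array weights (0.0146), the replicate number as a block (0.0161) and without 2w-WD replicate 1 (0.0183). Under these 4 settings 7.78%, 32.2%, 17.8% and 29.7% of all genes tested were called. In the other 20 of its 24 alternatives Mmp9 did not pass, with limma adjusted p up to 0.726.

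Of 16 further neutrophil surface receptors, 11 had a probe set and 10 were tested. In 2w-WD over CHOW and in 14w-WD over CHOW 0 were called, against 0.0% and 0.00839% of all genes tested. In 14w-WD over 2w-WD 1 rose, against 10.1% of all genes tested: Fcgr3, an activating receptor for immunoglobulin G that macrophages and neutrophils share. It read 8.56, 8.60, 8.76, 6.79 and 7.93 on the 14w-WD arrays and 7.37, 6.63, 6.73, 6.35 and 5.92 on the 2w-WD arrays, which overlap. Its log2 change was 1.53 with an SE of 0.47 (limma adjusted p = 0.0458), and the call was lost with quantile normalization (1.18, 0.0680), median centring (0.0536), the brightness covariate (0.837) and no filter on dim genes (0.0607). It held when CHOW replicate 1 or 5, 2w-WD replicate 1 or 14w-WD replicate 4 was left out, and was lost without any other single array (adjusted p up to 0.117).

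Of 5 genes for receptors of the products, such as Tlr4 and Ager for calprotectin, 4 were tested. Tlr4, the receptor for lipopolysaccharide on macrophages, was called higher in 14w-WD over 2w-WD, as were 10.1% of all genes tested. It read 8.57, 8.50, 8.55, 8.78 and 9.15 on the 14w-WD arrays and 7.90, 7.08, 7.09, 5.83 and 7.70 on the 2w-WD arrays, with no overlap, as for 8.63% of all genes tested. The log2 change was 1.59 with an SE of 0.36 (limma adjusted p = 0.0184). It was 1.15 with quantile normalization (adjusted p = 0.0548) and 0.28 for the mean of the probe sets of the gene (0.142), so its probe sets disagreed. The call was also lost with the brightness covariate (0.539), without 2w-WD replicate 2 (0.0501) and without 14w-WD replicate 1 (0.0526). No other gene of these 5 was called in any comparison.

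The ligands of the 2 receptors on the list were Cxcl1, Cxcl2, Cxcl3, Cxcl5 and Ppbp for Cxcr2 and Csf3 for Csf3r. All 6 had a probe set, 4 were tested, and 0 were called in the 3 comparisons. Of all genes tested, 0.0% were called in 2w-WD over CHOW, 0.00839% in 14w-WD over CHOW and 11.2% in 14w-WD over 2w-WD. Cxcl1, a neutrophil chemoattractant, had log2 changes of -0.99 in 2w-WD over CHOW and 1.00 in 14w-WD over 2w-WD (limma adjusted p = 0.670 and 0.413). Ppbp, a platelet chemokine precursor, had changes of 0.87 in 2w-WD over CHOW and -1.08 in 14w-WD over 2w-WD (limma adjusted p = 0.750 and 0.435). Of 6 lineage factors, 3 were tested and 0 called, against the same shares of all genes. With so few genes, a count of 0 does not stand out from these shares. Cebpa, which drives the early granulocyte programme, had a change of 0.93 in 14w-WD over CHOW with an SE of 0.42 (limma adjusted p = 0.294), and Cebpb, a factor of macrophage activation and emergency granulopoiesis, had 0.53 (limma adjusted p = 0.383). Gfi1 and Spi1, which encodes PU.1, were under the median of all probe sets.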

How the data were processed

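Foam cells of 15 samples in 3 diet groups were measured on Affymetrix Mouse Genome 430 2.0 arrays. The deposited table of the authors gives linear intensities, with 45037 probe sets per array. Their summarisation, background correction and normalization are not given in the sources used here. Between 991 and 1238 values of an array were exactly 1. The number of arrays limits the precision.

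Gene names came from the platform annotation in GEO, which gave 1 gene for 34945 probe sets, several for 932 and none here for 9160. Values were turned into log2(intensity + 16), as planned for linear values. Each gene was represented by its probe set of highest mean, and genes with a mean above the median of all probe sets were tested, 11925 in all. The fit used limma 3.58.1 under R 4.3.3 (lmFit, then eBayes with its intensity trend) over all 15 arrays with the 3 pairwise contrasts. Tests were two-sided, and calls were made at 0.05 after Benjamini-Hochberg adjustment over all genes tested. On simulated data for 14w-WD versus CHOW over 11925 genes, the steps recovered 31% of genes changed by 1 on the log2 scale. They recovered 87% of those changed by 2, with 3 false calls. The simulated noise was independent for each gene and array, so these figures do not cover differences shared by the genes of an array.

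The members and the gene lists were chosen with earlier results of these data known. Besides the 10 genes, the text names of each list the genes called, otherwise the 2 with the smallest unadjusted p in any contrast, and for each member the 2 genes of highest correlation. Alternatives were a pseudocount of 1, no filter, quantile normalization, median centring, the mean of a gene's probe sets, array weights, no intensity trend, only the groups compared, a replicate block and leaving out each array. The share of probe sets brighter than 100 as a covariate was added after seeing the data. Promoter windows were matched by symbol to a RefSeq table.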

Additional observations from a re-analysis of the deposited data

Results flagged for a closer look

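In 3 of 27 sets of 5 arrays (9 genes in 3 groups), 1 array stood far from the other 4, with a gap to the nearest that exceeded Dixon's 95% critical value of 0.71 of the whole range. Chance flags about 1 in 20 such sets. Csf3r read 8.26 on CHOW replicate 1, where the other CHOW arrays read 6.88 to 7.16. Mpo read 4.20 on CHOW replicate 4, an intensity of 2.32, where the others read 5.52 to 5.85. Cxcr2 read 4.39 on 14w-WD replicate 1, an intensity of 4.99, where the others read 4.09, which is an intensity of exactly 1. With those 4 values tied, any different value on the remaining array would be flagged, so the chance rate does not apply to Cxcr2.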

How the results depend on the processing

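No gene of the list was called for 2w-WD versus CHOW or 14w-WD versus CHOW in any of the 25 alternatives. Over all genes tested, 0.0% were called for 2w-WD versus CHOW in each alternative. For 14w-WD versus CHOW, 18.7% were called with array weights and at most 1.69% in any other alternative. These counts of 0 therefore say little about the list. For 14w-WD versus 2w-WD, 1 gene, S100a8, was called with array weights, without 2w-WD replicate 1 and without 14w-WD replicate 4, where 32.2%, 29.7% and 13.5% of all genes tested were called, so that the count ran from 0 to 1 when single arrays were left out. The 6 genes above the median of all probe sets numbered 6 in all 19 alternatives computed for that count. Of 450 recomputed changes of the 6 genes tested, 431 kept their direction and side of the threshold and 16 had the other direction. Of 171 of the 3 dim genes, 168 lay within 1 SD of the reported value, but 11 had the other direction. With the share of bright probe sets as a covariate, the direction turned for Mmp8 (-0.059) and Ngp (-0.044) in 2w-WD over CHOW, for S100a8 (0.22), Csf3r (-0.076) and Mmp8 (0.44) in 14w-WD over CHOW, and for Mmp8 (0.49) in 14w-WD over 2w-WD. The cause was not tested. When single arrays were left out, the change in 2w-WD over CHOW ran from -0.58 to 0.044 for Lcn2, from -0.31 (without 2w-WD replicate 3) to 0.61 for Mmp8 and from -0.10 to 0.21 for Ngp. In 14w-WD over 2w-WD that of S100a9 ran from -1.21 to 0.21 (without 2w-WD replicate 5) and that of Mmp8 from -0.97 (without 2w-WD replicate 1) to -0.043 (without 2w-WD replicate 3). With a pseudocount of 1, the untested change of Cxcr2 was -0.67 in 14w-WD over CHOW and -0.76 in 14w-WD over 2w-WD, and that of Mpo was 1.24 in 14w-WD over 2w-WD.

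Whether replicate numbers pair the arrays was not settled. Same-numbered arrays deviated together with correlations of -0.17 to 0.48, but differently numbered arrays were not compared. With the replicate block, 0 genes of the list were called in each comparison, and over all genes 2122 were called for 14w-WD versus 2w-WD, against 1338 without it. That count was 3839 with array weights, 0 with the covariate, 928 with quantile normalization (640 higher and 288 lower, against 1201 and 137) and 164 to 3536 with 1 array left out. For 14w-WD versus CHOW, where 1 gene was called, it was 2234 with array weights, 122 with only the groups compared, 20 with the block, 17 with no filter, and 0 to 201 with 1 array left out. Dim probe sets limit what can be said of Camp, Mpo and Cxcr2.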
